A study of Homo sapiens with 6 samples.

Results

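The genes examined here are 10 genes of the antioxidant response that the transcription factor NRF2 is known to drive. They are NFE2L2, which encodes NRF2 itself, and NQO1, HMOX1, GCLC, GCLM, TXNRD1, SRXN1, AKR1C1, AKR1C2 and AKR1C3. They were listed by gene symbol, with earlier results of these data known, and all 10 were found among the 27678 loci with a symbol in a table of 41656 loci. Each had a row of its own with no other symbol in it. The RNA came from MCF10A, an established cell line of human breast epithelium. One group of 3 samples was transfected with non-targeting siRNA (siNT) and the other group of 3 samples with siRNAs against PAX9 (siPAX9), both at 30 nM and for 72 hours. No untransfected group was analysed here, and siPAX9 is a single reagent in a single cell line. The deposited table holds 1 FPKM per locus and group, with the 3 samples of a group pooled. FPKM counts sequenced fragments relative to transcript length and to the reads mapped in a library. Each value below is therefore the authors' pooled value, with no SD and no replicate check, and the number of reads behind it is unknown. No p-value is given, since those of the authors' own comparison were not used. A difference between the groups is given as the ratio of the pooled FPKM or as the log2 ratio of siPAX9 over siNT. From the pooled values it cannot be weighed against the spread between samples.

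NRF2 is held at a low level in unstressed cells by KEAP1, an adaptor that passes it to a CUL3 ubiquitin ligase for degradation. Oxidants and electrophiles modify KEAP1, and NRF2 then collects in the nucleus, pairs with a small MAF protein and binds antioxidant response elements near its target genes. Because this control acts on the protein, the mRNA of NFE2L2 says little about NRF2 activity. The targets make glutathione, keep thioredoxin and peroxiredoxins reduced, clear quinones and haem, and reduce reactive carbonyls.

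PAX9, the gene targeted by the siRNAs, had 2.80 pooled FPKM in siNT and 0.325 in siPAX9, a log2 ratio of -3.10. It reached 1 FPKM only in siNT, and with 1 added to each FPKM its log2 ratio was -1.52. All 9 breast epithelial markers were at 1 FPKM or more, with the basal keratins KRT5 and KRT17 the most abundant, at 1558 and 1718 FPKM in siNT and 1807 and 2088 in siPAX9. Of the 9, KRT6A (368 and 959 FPKM) and CDH1 (45.3 and 124) were at least 2-fold higher in siPAX9 and EPCAM (34.3 and 16.7) at least 2-fold lower. Of 7 luminal markers, 4 were at 1 FPKM or more, and of these FOXA1 (1.10 and 2.86) was at least 2-fold higher. The background below is the 12849 loci with a symbol, enough reads by the table's status flag and 1 FPKM or more in at least one group. Over the 12806 with a value above 0 in both groups, the median log2 ratio was -0.06, with quartiles at -0.41 and 0.30. Among the 12849, 45.3% had a log2 ratio above 0, with the 29 listed at 0 in siNT counted as above 0. Of all 12849 loci, 7.47% were at least 2-fold higher in siPAX9 and 6.97% at least 2-fold lower.

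The 10 genes divided into those with large differences and those with small ones. AKR1C1, AKR1C2, TXNRD1 and HMOX1 were at least 2-fold higher in siPAX9, which is 4 of 10 against 7.47% of the background, and 0 of 10 were at least 2-fold lower, against 6.97%. HMOX1 reached 1 FPKM only in siPAX9, the group where it was higher. Another 3 genes, AKR1C3, GCLC and NQO1, were higher by less than 2-fold, and NFE2L2, GCLM and SRXN1 were lower by less than 1.5-fold. The log2 ratios ran from -0.31 to 3.03, with a median of 0.81 against -0.06 in the background. In bulk RNA, a change in the share of cells that express a gene and a change in the amount per cell cannot be told apart.

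**Figure D1:**
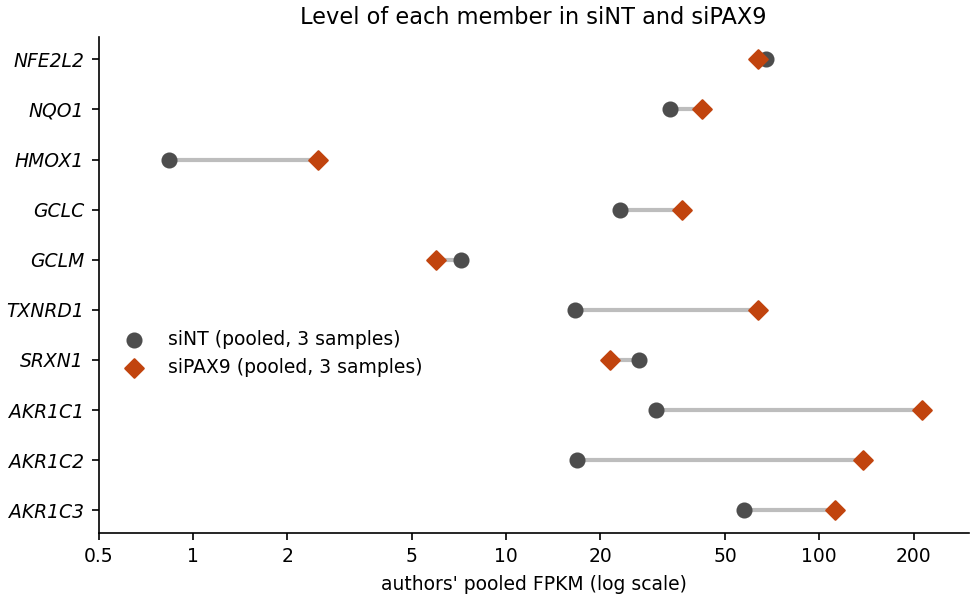
Authors' pooled FPKM of each of the 10 genes (log scale) in siNT (grey circles) and siPAX9 (orange diamonds), with a line joining the values of a gene. AKR1C1, AKR1C2 and TXNRD1 were at 30.2, 16.9 and 16.6 FPKM in siNT and at 212, 138 and 63.9 in siPAX9, while both points of NFE2L2, GCLM and SRXN1 lie close together.

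The regulator itself showed little difference. NFE2L2 (chromosome 2, 178095031 to 178129859 on UCSC hg19) stood at 67.8 FPKM in siNT and 63.9 in siPAX9. Its log2 ratio of -0.08 was close to the background median, and 48.1% of background loci had a lower ratio. NFE2L2 was the highest of the 10 genes in siNT and the fifth in siPAX9, behind AKR1C1, AKR1C2, AKR1C3 and TXNRD1, the last of these at 63.9 FPKM too.

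The largest differences were those of AKR1C1 and AKR1C2. With AKR1C3 they encode aldo-keto reductases that reduce steroids, prostaglandins and reactive carbonyls, and the genes lie side by side on chromosome 10. AKR1C1 (5005454 to 5022207), whose enzyme inactivates progesterone, stood at 30.2 FPKM in siNT and 212 in siPAX9, a 7.02-fold difference and a log2 ratio of 2.81. AKR1C2 (5028083 to 5060225), whose enzyme reduces dihydrotestosterone, stood at 16.9 FPKM in siNT and 138 in siPAX9, an 8.16-fold difference and a log2 ratio of 3.03. Only 1.77% and 1.57% of background loci had a higher log2 ratio than AKR1C1 and AKR1C2. AKR1C3 (5090958 to 5149878), whose enzyme makes testosterone and prostaglandin F, was the highest of the 3 paralogs in siNT at 57.4 FPKM and had 112 FPKM in siPAX9. Its difference was 1.96-fold, with a log2 ratio of 0.97, just under 2-fold.

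The order of the AKR1C genes thus differed between the groups. In siNT, AKR1C3 made up 55.0% of the summed FPKM of AKR1C1, AKR1C2 and AKR1C3, followed by AKR1C1 with 28.9% and AKR1C2 with 16.1%. In siPAX9, AKR1C1 made up 45.9%, AKR1C2 29.8% and AKR1C3 24.4%. The sum itself was 104 FPKM in siNT and 462 in siPAX9, a 4.42-fold difference. These 3 genes accounted for 37.3% of the FPKM summed over all 10 genes in siNT and for 66.2% in siPAX9.

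**Figure D2:**
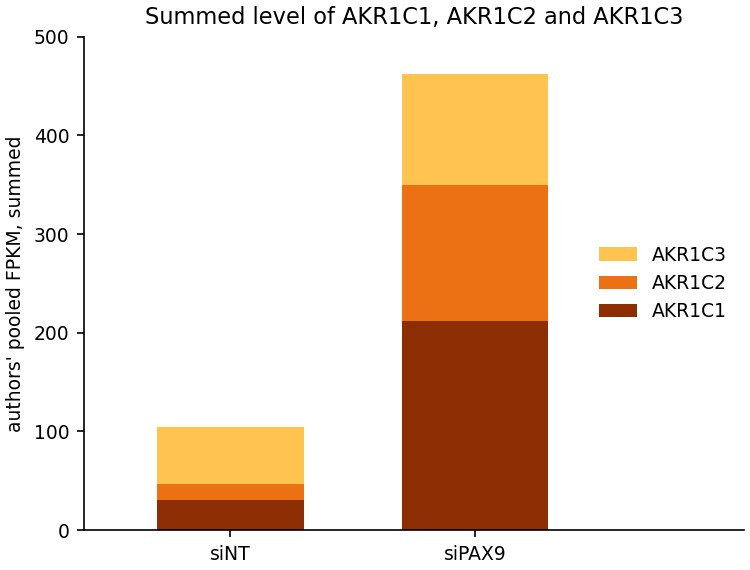
Authors' pooled FPKM of AKR1C1, AKR1C2 and AKR1C3, stacked to their sum, in siNT and siPAX9. The sum was 104 in siNT and 462 in siPAX9, and the largest piece was AKR1C3 in siNT and AKR1C1 in siPAX9.

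How reads were divided between these paralogs bears on each single value. The coding sequences of AKR1C1 and AKR1C2 (GENCODE, GRCh37) differed at 19 of 969 bases, an identity of 98.0%, and that of AKR1C3 was 91.4% identical to AKR1C1 and 91.0% identical to AKR1C2. Of the 75-base windows along the coding sequence, 33.4% were the same in AKR1C1 and AKR1C2, while AKR1C3 shared 7.71% of its windows with AKR1C1 and 13.3% with AKR1C2. A read from a shared window cannot be assigned to either gene by its sequence, so the separate values of AKR1C1 and AKR1C2 are uncertain. Summed, AKR1C1 and AKR1C2 had 47.0 FPKM in siNT and 349 in siPAX9, a 7.43-fold difference that depends less on how reads were divided between them.

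The following 75 bases of exon 8 are shown because they are identical in AKR1C1 and AKR1C2 and, of all such stretches within an exon, differ most from AKR1C3. They are positions 849 to 923 of the coding sequence, at chr10:5018045-5018119 (plus strand), chr10:5034029-5034103 (minus strand) and chr10:5147789-5147863 (plus strand) of GRCh37. Capitals mark bases that differ from AKR1C1, 0 in AKR1C2 and 13 in AKR1C3.
AKR1C1: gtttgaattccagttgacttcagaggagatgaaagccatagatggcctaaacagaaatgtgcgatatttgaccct
AKR1C2: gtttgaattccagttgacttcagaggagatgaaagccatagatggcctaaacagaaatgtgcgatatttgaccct
AKR1C3: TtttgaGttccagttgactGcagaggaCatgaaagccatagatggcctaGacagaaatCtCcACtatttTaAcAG

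The next 75 bases, of exon 2, are shown because they hold the most differences between AKR1C1 and AKR1C2 of any such stretch, so reads from here can be told apart. They are positions 88 to 162 of the coding sequence, at chr10:5008109-5008183 (plus strand), chr10:5043796-5043870 (minus strand) and chr10:5138605-5138679 (plus strand) of GRCh37. Capitals again mark differences from AKR1C1, 10 in AKR1C2 and 9 in AKR1C3.
AKR1C1: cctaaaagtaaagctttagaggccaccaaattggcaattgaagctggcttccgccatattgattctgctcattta
AKR1C2: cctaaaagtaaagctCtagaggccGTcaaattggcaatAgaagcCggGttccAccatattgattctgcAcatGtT
AKR1C3: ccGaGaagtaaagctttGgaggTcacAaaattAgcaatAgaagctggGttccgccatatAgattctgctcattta

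AKR1C1 and AKR1C2 also share the sequence before their start. The 250 bases upstream of each start (RefSeq, GRCh38.p14) could be laid over each other with an offset of 4 bases, and 245 of the 246 bases compared were identical. They lie at chr10:4963165-4963414 for AKR1C1 (plus strand) and chr10:5003858-5004107 for AKR1C2 (minus strand), and are shown because the genes they precede had the largest ratios of the 10.
AKR1C1: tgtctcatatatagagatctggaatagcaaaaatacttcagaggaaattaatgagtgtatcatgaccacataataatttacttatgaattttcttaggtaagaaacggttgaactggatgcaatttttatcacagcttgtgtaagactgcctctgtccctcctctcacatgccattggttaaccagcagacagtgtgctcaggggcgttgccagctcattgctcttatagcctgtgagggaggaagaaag
AKR1C2: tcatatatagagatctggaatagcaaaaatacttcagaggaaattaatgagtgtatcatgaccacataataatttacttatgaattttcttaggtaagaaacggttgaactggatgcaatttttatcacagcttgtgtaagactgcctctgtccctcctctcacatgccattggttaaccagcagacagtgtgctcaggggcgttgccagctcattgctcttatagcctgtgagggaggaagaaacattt

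AKR1C4, the remaining member of this gene cluster, is mainly a liver enzyme and was low in both groups, at 0.867 FPKM in siNT and 2.74 in siPAX9. Of the 895 windows of each paralog, AKR1C4 shared 34 with AKR1C3 and 31 with AKR1C1, so these low values are uncertain as well. AKR1B1, which encodes aldose reductase and lies outside the cluster, was 2.24-fold higher in siPAX9 (113 and 253 FPKM). AKR1B10, a further aldo-keto reductase regarded as a typical NRF2 target, had 6.34 FPKM in siNT and 5.58 in siPAX9.

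The genes of the thioredoxin branch differed in direction. TXNRD1 (chromosome 12, 104609557 to 104744085) encodes the cytosolic selenoenzyme that reduces thioredoxin with NADPH. It stood at 16.6 FPKM in siNT and 63.9 in siPAX9, a 3.85-fold difference and a log2 ratio of 1.94. SRXN1 (chromosome 20, 627268 to 634014) encodes sulfiredoxin, which repairs overoxidized peroxiredoxins. It stood at 26.5 FPKM in siNT and 21.4 in siPAX9, a log2 ratio of -0.31, so it lay 1.24-fold lower. The TXNRD1 coding sequence shared 0 of 1873 windows with another annotated gene, whereas SRXN1 shared 38.3% of its 337 windows with another annotated gene that has no symbol. EID3 lies within the TXNRD1 locus and had only 0.225 FPKM in siNT and 0.642 in siPAX9.

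Of 18 further genes of the thioredoxin system, 1 was at least 2-fold higher in siPAX9 and 0 were at least 2-fold lower, against 7.47% and 6.97% of the background. A log2 ratio above 0 was found for 5 of the 18, against 45.3% of the background. TXN, thioredoxin itself, had 239 FPKM in siNT and 212 in siPAX9. PRDX1, a peroxiredoxin known as an NRF2 target, had 295 and 291 FPKM. The most abundant, PRDX6, had 356 and 297 FPKM. The gene past 2-fold was SESN3, a stress-induced sestrin, with 0.347 FPKM in siNT and 1.37 in siPAX9. It reached 1 FPKM only in siPAX9. With 1 added to each FPKM, 0 genes of the list were past 2-fold, against 4.59% of the background upward and 4.56% downward. TXNRD2, the mitochondrial thioredoxin reductase, had 11.8 and 10.7 FPKM, and the locus of TXNRD3 had 6.02 and 5.54.

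GCLC and GCLM, the catalytic and modifier subunits of glutamate-cysteine ligase, the rate-limiting enzyme of glutathione synthesis, lay on opposite sides of 0. GCLC (chromosome 6, 53362115 to 53409927) stood at 23.1 FPKM in siNT and 36.4 in siPAX9, a 1.57-fold difference and a log2 ratio of 0.65, which 12.8% of background loci exceeded. Of its windows 5.93% are also in GCLC-AS1, and whether reads were counted by strand is not given in the sources used here. GCLM (chromosome 1, 94350756 to 94375154) stood at 7.16 FPKM in siNT and 5.98 in siPAX9, a log2 ratio of -0.26. The level of GCLC was 3.24 times that of GCLM in siNT and 6.10 times in siPAX9.

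In a list of 18 measured genes for the supply, recycling or use of glutathione, 0 were at least 2-fold higher and 3 were at least 2-fold lower in siPAX9, against 7.47% and 6.97% of the background, and the median log2 ratio was -0.21. The list also holds GGCX, the vitamin K-dependent carboxylase, which has no such role and had 16.6 and 15.2 FPKM. With 1 added to each FPKM, 1 was at least 2-fold lower, against 4.56% of the background. SLC7A11, the cystine transporter that feeds glutathione synthesis and a known NRF2 target, had 11.8 FPKM in siNT and 5.43 in siPAX9, a log2 ratio of -1.12. CHAC1, which degrades glutathione, had 8.60 and 1.14 FPKM, a log2 ratio of -2.91. GPX8, a peroxidase of the endoplasmic reticulum, had 12.5 and 5.86 FPKM. GPX1, the most abundant of the list, had 359 and 391 FPKM. GSR, glutathione reductase and another known NRF2 target, had 29.7 and 28.9 FPKM. Of 12 measured glutathione S-transferases, 0 passed 2-fold in either direction, against 7.47% of the background upward and 6.97% downward. The most abundant, GSTP1, had 737 FPKM in siNT and 645 in siPAX9.

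NQO1 and HMOX1 clear quinones and haem. NQO1 (chromosome 16, 69743304 to 69760571), the quinone reductase often used as a marker of NRF2 activity, stood at 33.3 FPKM in siNT and 42.2 in siPAX9. This was a 1.27-fold difference, with a log2 ratio of 0.34, and 23.0% of background loci had a higher ratio. HMOX1 (chromosome 22, 35777060 to 35790207), which encodes the inducible haem oxygenase, stood at 0.841 FPKM in siNT and 2.51 in siPAX9. Its ratio was 2.99-fold and its log2 ratio 1.58, but it was the lowest of the 10 genes in both groups, and with 1 added to each FPKM its log2 ratio was 0.93. HMOX2, the constitutive haem oxygenase, had 26.6 and 29.7 FPKM.

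Of 12 measured genes of haem and iron handling, 0 were at least 2-fold higher in siPAX9 and 1, FTL, was at least 2-fold lower, against 7.47% and 6.97% of the background. FTL, the ferritin light chain and a known NRF2 target, had 315 FPKM in siNT and 145 in siPAX9, while FTH1, the ferritin heavy chain, had 2897 and 4117. Both ferritin genes have many processed pseudogenes, so reads may have been divided among copies and both values are uncertain. Of the biliverdin reductases, BLVRA had 29.4 and 26.6 FPKM and BLVRB 20.3 and 36.7, both below 2-fold.

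**Figure D3:**
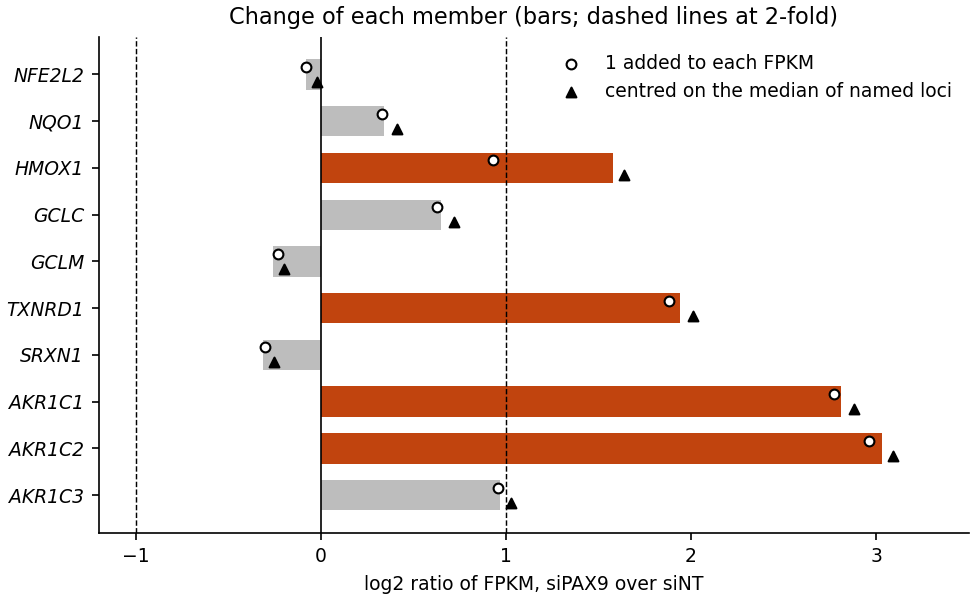
Log2 ratio of the authors' pooled FPKM, siPAX9 over siNT, for each of the 10 genes (bars, orange where at least 2-fold), with 1 added to each FPKM (open circles) and after centring on the background median (triangles). Dashed lines mark 2-fold; HMOX1 lay under the line when 1 was added (0.93) and AKR1C3 passed it after centring (1.03).

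The count of 4 genes past 2-fold moved with the limits chosen, through HMOX1 and AKR1C3. With 1 added to each FPKM, 3 genes were at least 2-fold higher, without HMOX1, against 4.59% of the background. After centring, 5 genes were, with AKR1C3, against 8.14%. With 10 FPKM or more required in either group, 3 of the 8 genes that met it were at least 2-fold higher, against 4.21% of 7001 loci. AKR1C1, AKR1C2 and TXNRD1 were at least 2-fold higher in each of these 3 settings. At a limit of 1.5-fold, 6 genes were higher in siPAX9, with AKR1C3 and GCLC, against 14.4% of the background. At 4-fold, AKR1C1 and AKR1C2 remained past the limit, against 2.86%.

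**Figure D4:**
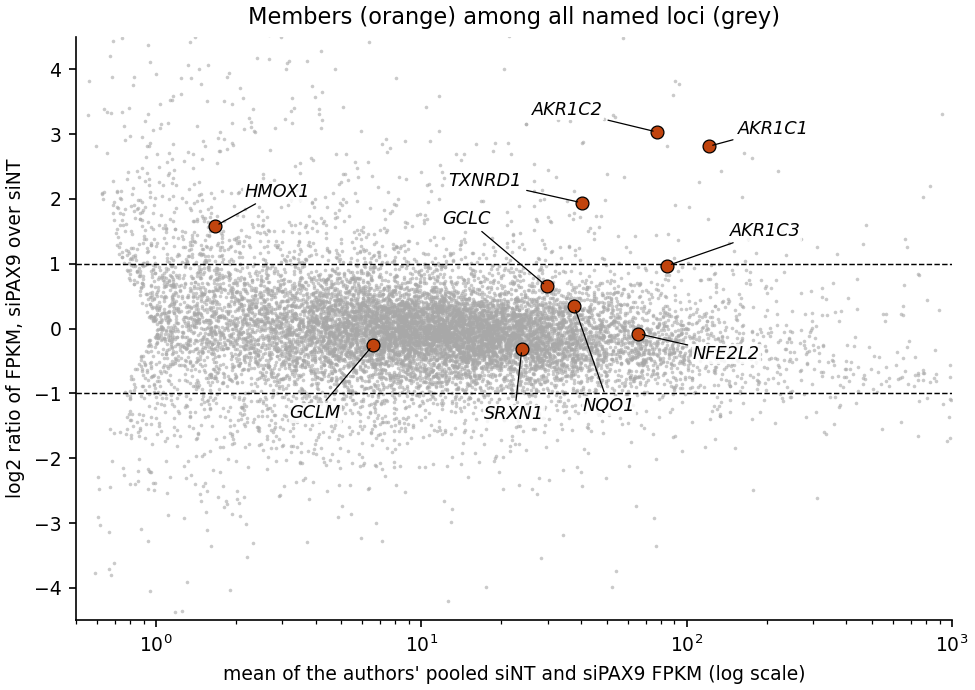
Log2 ratio of siPAX9 over siNT against the mean of both pooled FPKM values (log scale) for loci with a symbol (grey) and the 10 genes (orange), with dashed lines at 2-fold; 151 loci lie outside the axes. AKR1C1, AKR1C2 and TXNRD1 lie above the upper line at levels where most loci lie between the lines, and HMOX1 lies among loci of low level, whose ratios spread widely.

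Sequence near the starts was compared with the letters of the antioxidant response element. The core was searched as TGACNNNGC on both strands, in the RefSeq windows from 250 bases before to 50 bases after a start (GRCh38.p14). It was found in 13.3% of all 35116 windows and in 3 of the 12 windows of the 9 genes that could be matched, namely one window of GCLM and both windows of TXNRD1. The stricter form TGACTCAGC was found in 0.561% of all windows and in 0 of these 12. HMOX1 was not matched. A match of these letters is a description and not a binding site, and elements lying farther from a start were not searched.

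The upstream bases with a match are shown because TXNRD1 and GCLM, which both carry the core near a start, differed in response, with log2 ratios of 1.94 and -0.26. The core is in capitals and reads from the other strand in GCLM and in the second window of TXNRD1. The windows lie at chr12:104215529-104215778 and chr12:104286782-104287031 for TXNRD1 (plus strand) and chr1:93909431-93909680 for GCLM (minus strand). A further match in the first TXNRD1 window runs across the start and past the bases shown.
TXNRD1, first start: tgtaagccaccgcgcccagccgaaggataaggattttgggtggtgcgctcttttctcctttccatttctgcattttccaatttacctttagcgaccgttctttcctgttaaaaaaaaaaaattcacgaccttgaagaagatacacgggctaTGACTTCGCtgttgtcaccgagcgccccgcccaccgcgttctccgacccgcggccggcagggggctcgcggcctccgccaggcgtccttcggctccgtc
TXNRD1, second start: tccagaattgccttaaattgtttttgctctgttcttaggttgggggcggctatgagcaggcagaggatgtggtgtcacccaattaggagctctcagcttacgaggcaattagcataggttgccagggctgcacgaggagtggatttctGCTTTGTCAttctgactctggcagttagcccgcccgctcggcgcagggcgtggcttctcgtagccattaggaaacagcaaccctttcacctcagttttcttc
GCLM: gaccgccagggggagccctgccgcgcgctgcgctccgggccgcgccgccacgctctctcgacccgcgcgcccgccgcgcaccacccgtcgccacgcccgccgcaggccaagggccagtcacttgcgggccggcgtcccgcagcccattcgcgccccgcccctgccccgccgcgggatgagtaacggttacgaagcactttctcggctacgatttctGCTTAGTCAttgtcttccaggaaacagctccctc

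Genes that act on NRF2 or compete with it lay mostly within 2-fold. Of 15 measured regulators and partners, 0 were at least 2-fold higher and 1 was at least 2-fold lower in siPAX9, against 7.47% and 6.97% of the background, with a median log2 ratio of 0.11. At 1.5-fold, 3 were higher and 2 lower, against 14.4% and 16.8%. KEAP1 had 24.8 FPKM in siNT and 25.9 in siPAX9, and CUL3 had 12.6 and 11.6, while RBX1, the RING subunit of the same ligase, had 35.6 and 20.8. SQSTM1, an autophagy receptor that binds KEAP1 and was the most abundant of the list, had 157 and 198 FPKM. Of the small MAF partners, MAFF had 22.1 and 36.0 FPKM, MAFG 11.5 and 13.5, and MAFK 11.2 and 10.4. BACH1, a repressor that occupies antioxidant response elements, had 15.4 and 24.4 FPKM. The gene past 2-fold was NFE2, a relative of NRF2 best known from blood cells, with 2.99 and 1.33 FPKM and a log2 ratio of -1.17. With 1 added to each FPKM that ratio was -0.77. In this setting 0 genes of the list were past 2-fold, against 4.59% of the background upward and 4.56% downward. NFE2L1, a relative that controls proteasome genes, had 61.8 and 110 FPKM.

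Genes listed for the supply of NADPH, the reductant used by NQO1, TXNRD1 and the AKR1C enzymes, mostly had lower values in siPAX9. The list also holds TKT, TALDO1, PGLS and ME2, whose enzymes do not make NADPH themselves. Of 12 measured, 1 had a log2 ratio above 0, against 45.3% of the background, and the median was -0.51. Of the 12, 0 were at least 2-fold higher and 3 at least 2-fold lower, against 7.47% and 6.97% of the background. The 3 were MTHFD2, ALDH1L1 and ALDH1L2, enzymes of folate metabolism, with log2 ratios of -1.62, -2.91 and -2.78, ALDH1L1 from only 1.07 FPKM in siNT. With 1 added to each FPKM, ALDH1L1 was at -0.86 and 2 genes were at least 2-fold lower, against 4.56% of the background. PGD, an enzyme of the pentose phosphate pathway, had 61.5 FPKM in siNT and 33.3 in siPAX9. TKT, the most abundant, had 337 and 230 FPKM, and ME1, malic enzyme, had 11.1 and 8.55. For superoxide dismutases and catalase, 0 of 4 loci were past 2-fold, against 7.47% of the background upward and 6.97% downward. The locus that holds SOD2, the most abundant of them, had 2209 and 1602 FPKM.

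Other detoxification enzymes and efflux pumps differed in both directions. Of 28 measured loci, 7 were at least 2-fold higher and 3 at least 2-fold lower, against 7.47% and 6.97% of the background. ALDH1A3 and ALDH3A1, aldehyde dehydrogenases that make retinoic acid and oxidize aromatic and fatty aldehydes, had log2 ratios of 3.22 and 2.88. ALDH1A3 had 9.48 FPKM in siNT and 88.6 in siPAX9, and ALDH3A1 had 9.71 and 71.7. The UGT1A locus, whose enzymes attach glucuronic acid to drugs and bilirubin, had 1.26 and 5.56 FPKM over 9 symbols in a single row. Lower in siPAX9 were CES1, a carboxylesterase, with a log2 ratio of -2.63, CBR3, a carbonyl reductase, with -1.65, and UGDH, which makes the sugar donor for glucuronidation, with -1.23. PTGR1 and OSGIN1, both described as NRF2 targets, had 6.61 and 0.683 FPKM in siNT and 16.2 and 1.66 in siPAX9. OSGIN1 and AKR1C4, both counted among the 7, reached 1 FPKM only in siPAX9, and CBR3 only in siNT, where it had 1.88 FPKM against 0.596. With 1 added to each FPKM the counts were 6 higher and 2 lower, against 4.59% and 4.56% of the background. They then left out OSGIN1 and CBR3, whose log2 ratios were 0.66 and -0.85. Over all 10 lists of related genes, 9.92% of 131 loci were at least 2-fold higher and 8.40% at least 2-fold lower, against 7.47% and 6.97% of all background loci.

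**Figure D5:**
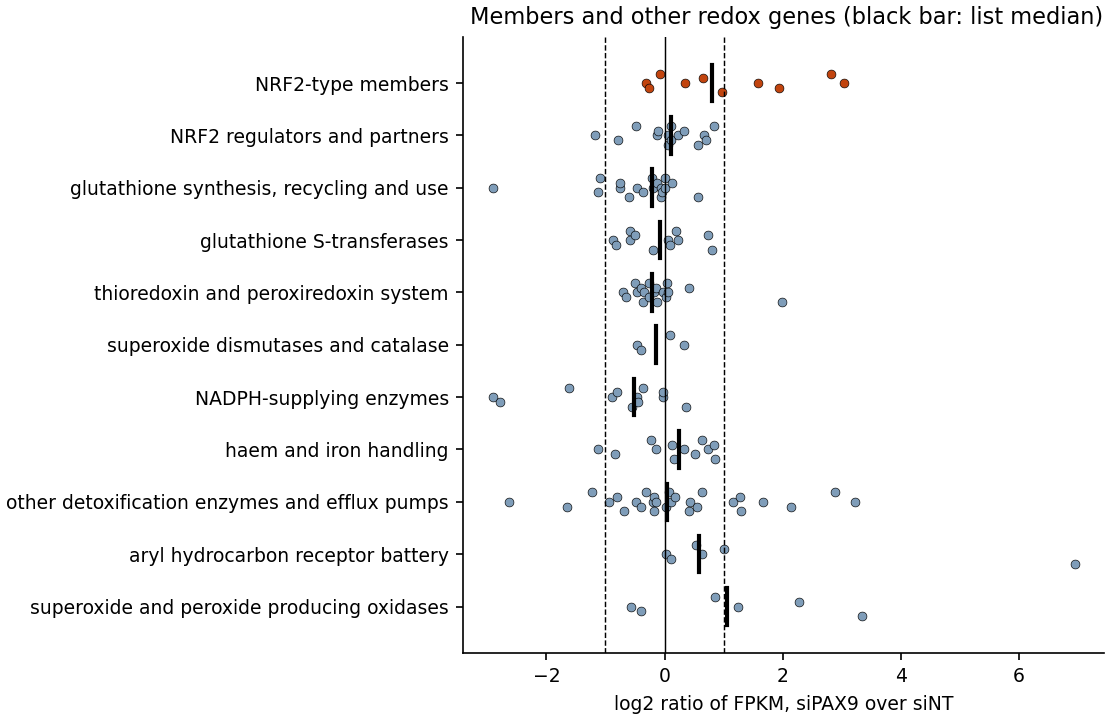
Log2 ratio of siPAX9 over siNT for the 10 NRF2-type genes (orange) and for 10 lists of related redox genes (blue), 1 point per locus with 1 FPKM or more in at least one group; black bars are list medians and dashed lines mark 2-fold. The median was 0.81 for the NRF2-type genes, -0.21 for glutathione genes and -0.51 for the list labelled NADPH-supplying enzymes.

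Markers of other cell types were low with exceptions. Of 7 fibroblast markers, 5 were below 1 FPKM in both groups, and the list summed to 6.40 FPKM in siNT and 42.2 in siPAX9, chiefly through DCN, at 5.85 and 37.9. COL1A1 had 0.454 and 4.13 FPKM, reaching 1 FPKM only in siPAX9, and COL1A2 and COL3A1 were listed at 0 in siNT. DCN and COL1A1 were both at least 2-fold higher in siPAX9, as 7.47% of the background was. Of 6 leukocyte markers, 4 were below 1 FPKM, with PTPRC at 0.0166 and 0.0922, and CD14, at 14.4 and 56.5 FPKM and a log2 ratio of 1.97, made up most of a sum of 18.1 and 61.1. Of 4 endothelial markers, 2 were below 1 FPKM, and the others lay past 2-fold in opposite directions, which 7.47% of the background did upward and 6.97% downward. PECAM1 had 2.58 and 0.495 FPKM, reaching 1 FPKM only in siNT. KDR had 0.798 and 1.94, reaching it only in siPAX9, and its log2 ratio was 0.71 with 1 added to each FPKM. The endothelial list summed to 3.38 and 2.46. Their part in the differences above was not tested.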

How the data were processed

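Poly(A)+ RNA of MCF10A cells, 3 siNT and 3 siPAX9 samples, was sequenced as single-end reads by the authors, who used Bowtie 2 for alignment to UCSC hg19 and Cufflinks for quantification, both in Partek Flow. The deposited table gives 1 FPKM per locus and group, combined over samples by the authors. How libraries were scaled against each other is not given in the sources used here. The deposited fold changes, test statistics, p-values and q-values are the authors' own comparison and were not used. Depth per value is unknown, and no test, interval or leave-one-out value could be computed.

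Rows were found by exact symbol (gene column split at commas), keeping the row with the highest mean FPKM. The log2 ratio of siPAX9 over siNT had no pseudocount. A locus was counted past 2-fold with a status of OK and 1 FPKM or more in at least one group. Starts, counted from 0 in the table, are printed from 1. The named genes were the 10 genes, PAX9, and of each related list the genes past 2-fold (at most 6) and the most abundant; others, such as KEAP1, NFE2L1, UGDH and known NRF2 targets, were chosen after their values were seen. Members and lists were chosen with earlier results of these data known, and 2 genes of the related lists are not reported here. Marker lists of 5 cell types were read the same way.

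Alternatives were 1 or 0.1 added to each FPKM, centring on the background median, summed rows, other fold and FPKM limits, the mean, and the AKR1C genes as 1 value. Calls and the motif search were tested on simulated data. Coding sequences came from GENCODE release 44 on GRCh37, which has the hg19 coordinates, and upstream sequences from RefSeq (GRCh38.p14). Python 3.11.15, numpy 2.4.6, pandas 2.3.3 and matplotlib 3.10.9 were used.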

Additional observations from a re-analysis of the deposited data

How the results depend on the processing

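None of the 10 genes changed direction when 1 or 0.1 was added to each FPKM or when ratios were centred, which shifts all genes alike. With 1 or 0.1 added, the ratio of siPAX9 over siNT moved by less than 1.5-fold, a limit taken in place of the missing spread, except for HMOX1, at a log2 ratio of 0.93 with 1 added. Summing rows with the same symbol could change nothing, since each of the 10 genes has 1 row. At a 4-fold limit, 2 genes were higher in siPAX9, AKR1C1 and AKR1C2, against 2.86% of the background, and at 1.5-fold 6 were, against 14.4%. The median log2 ratio of 0.81 became 0.78 with 1 added, 0.88 after centring, 0.50 with the AKR1C genes summed to 1 value and 1.07 as a mean. In the lists of related genes, 13 of 131 loci were at least 2-fold higher and 11 lower, against 7.47% and 6.97% of the background. At 1.5-fold the counts were 25 and 26, against 14.4% and 16.8%. With 1 added they were 9 and 6, against 4.59% and 4.56%. No paired analysis was possible because the table holds 1 pooled value per group, and for the same reason no sample could be left out. The number of reads behind each pooled FPKM is unknown, and low values such as those of HMOX1 are the least certain.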

Other observations

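Oxidases that make superoxide and hydrogen peroxide, the substrates of the antioxidant enzymes, and their subunits and maturation factors differed in both directions. Of 6 measured genes, 3 were at least 2-fold higher in siPAX9 and 0 at least 2-fold lower, against 7.47% and 6.97% of the background, with a median log2 ratio of 1.05. With 1 added to each FPKM, 2 were at least 2-fold higher, against 4.59%. DUOX1, a dual oxidase of epithelial surfaces, had 1.81 FPKM in siNT and 8.81 in siPAX9, and its maturation factor DUOXA1 had 0.134 and 1.36, reaching 1 FPKM only in siPAX9. AOX1, aldehyde oxidase, had 2.63 and 6.24 FPKM. XDH, the most abundant oxidase with a row of its own, had 13.9 and 25.1, and the row that holds NOX5 together with SPESP1 had 23.7 and 18.1. NOX1, an NADPH oxidase best known from colon, had 1.46 and 0.991. The other 8 genes of the list, among them CYBB, the catalytic subunit of the phagocyte oxidase, were below 1 FPKM in both groups.

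NQO1 and ALDH3A1 are also known targets of the aryl hydrocarbon receptor. Of 6 measured genes of that receptor and its targets, all 6 had a log2 ratio above 0, against 45.3% of the background, and 2 were at least 2-fold higher in siPAX9, against 7.47%. With 1 added to each FPKM 1 was, against 4.59%. CYP1A1 had 0.0322 FPKM in siNT and 3.95 in siPAX9, a log2 ratio of 6.94 that was 2.26 with 1 added to each FPKM, and it reached 1 FPKM only in siPAX9. CYP1B1 had 36.9 and 74.0 FPKM, a log2 ratio of 1.00 that was 0.98 with 1 added, and AHR itself had 17.1 and 24.7. The row that holds AHRR together with PDCD6 had 57.4 and 58.4 FPKM, and ARNT also shares its row, with CTSK.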
